A study of Mus musculus with 18 samples.

Results

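The 10 genes described here encode hepatic acute-phase proteins, which are plasma proteins whose production by the liver changes during inflammation. Saa1, Saa2, Saa3, Apcs, Orm1, Orm2, Hp, Lcn2, Lbp and Wfdc21 were chosen by gene symbol from the 55487 genes of the count table, and each had 1 row. Each of 18 male C57BL/6J mice gave 1 liver RNA library, in 3 groups of 6 mice named CON-GFP, FPC-GFP and FPC-LIPA. All mice were injected with adeno-associated virus (AAV8) 1 week before the diets began, and the virus carried GFP in CON-GFP and FPC-GFP mice and human LIPA, the gene of lysosomal acid lipase, in FPC-LIPA mice. The virus used the thyroxine-binding globulin (TBG) promoter, which is active in hepatocytes, so other liver cells were not meant to express the transgene. CON-GFP mice ate a purified control diet for 16 weeks, whereas FPC-GFP and FPC-LIPA mice ate a diet rich in fat, fructose, palmitate and cholesterol (FPC) and drank sugar water over the same time. Mice were 7 weeks old when purchased, and livers were taken after a fast of 4 h. LIPA mice on the control diet were not analysed here, so the difference that came with LIPA was measured on the FPC diet alone.

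In the acute-phase response, cytokines of the interleukin-6 and interleukin-1 families reach the hepatocyte and act through STAT3, NF-kB and C/EBP factors on genes of secreted proteins. Proteins that rise are called positive acute-phase proteins, and those that fall, such as albumin and transferrin, are called negative. In mice, serum amyloid A and serum amyloid P are the classic positive proteins of the response.

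On the FPC diet, Saa1, Saa2 and Wfdc21 were lower in GFP livers than on the control diet. With LIPA on the FPC diet, Saa3, Wfdc21, Saa1 and Saa2 were higher than with GFP. A gene was called differentially expressed (DE) at the thresholds of the study, which require at least a 2-fold difference in either direction with an adjusted p below 0.05, here from edgeR's quasi-likelihood test with Benjamini-Hochberg adjustment over all genes tested. All 10 genes passed the filter on low counts in every comparison. In FPC-GFP against CON-GFP, 3 of the 10 genes were DE and lower and 0 were higher, beside 7.20% of all 14307 genes tested (2.44% lower and 4.76% higher). In FPC-LIPA against FPC-GFP, 4 of the 10 were DE and higher and 0 were lower, beside 11.4% of 14620 genes (10.3% higher and 1.11% lower). In FPC-LIPA against CON-GFP, Saa3 was the 1 DE gene of the 10 and was higher, beside 15.1% of 14433 genes (11.8% higher and 3.25% lower). The comparisons share the FPC-GFP, FPC-LIPA or CON-GFP libraries, so they are not independent of each other.

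Libraries held 16632146 to 37739301 counts, and the 10 genes together took 0.445% to 0.843% of the counts in CON-GFP, 0.383% to 0.552% in FPC-GFP and 0.515% to 0.661% in FPC-LIPA. Levels are given below as CPM, a gene's share of the library's counts on a common scale, scaled by TMM over the 18 libraries. The FPC-LIPA libraries were not alike. Genes of cytosolic ribosomal proteins took 6.58%, 8.21% and 8.29% of the counts in FPC-LIPA 36, 37 and 39, 2.19% to 2.99% in FPC-LIPA 31, 33 and 34, and 1.46% to 2.58% in the 12 GFP libraries. In the same 3 libraries short transcripts were raised over long ones. The median log2 level, relative to the CON-GFP mean of each gene, was taken over transcripts under 750 bases and over transcripts of at least 3000 bases, and the first less the second was 1.52 to 1.64 in FPC-LIPA 36, 37 and 39 and -0.74 to 0.21 in the other 15 libraries. The LIPA results of the 10 genes and the gene lists are therefore also given without these 3 libraries. Of 6 hepatocyte markers, all were expressed, with summed levels of 12975 to 27454 CPM, and the adipocyte markers Adipoq, Plin1 and Lep were at most 0.414 CPM in 17 livers. CON-GFP 7 held them at 4.53, 1.87 and 4.04 CPM, and their part in its Saa levels was not tested. The adipocyte markers Cfd and Fabp4 were higher over the 18 livers, at 3.52 to 54.8 CPM and 7.51 to 63.7 CPM. The highest Cfd was in FPC-GFP 12. Mouse Lipa was 340 ± 61.4 CPM in FPC-GFP and 293 ± 51.2 CPM in FPC-LIPA (SD, n = 6). The transgene was human, so this mouse gene does not check the LIPA labels.

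The serum amyloid A genes lie close together on chromosome 7 of GRCm38. Saa3 (ENSMUSG00000040026) is at 46711998 to 46715700 on the minus strand, Saa1 (ENSMUSG00000074115) at 46740497 to 46742980 on the minus strand and Saa2 (ENSMUSG00000057465) at 46751790 to 46754313 on the plus strand. Saa1 and Saa2 encode the serum amyloid A of plasma, which is carried on high-density lipoprotein, whereas Saa3 is also expressed outside hepatocytes, for example in macrophages and adipose tissue. The coding sequences of Saa1 and Saa2 were identical at 95.1% of aligned bases, those of Saa1 and Saa3 at 83.5% and those of Saa2 and Saa3 at 82.6%. How reads that map to several places were counted is not given in the sources used here, so the split of reads between Saa1 and Saa2 is uncertain. The bases before the start sites of these 3 genes are printed because the 3 genes were DE together in FPC-LIPA against FPC-GFP. They are RefSeq sequences of GRCm38.p6 on the strand of the gene, at chr7:46742981-46743230 for Saa1 (minus), chr7:46751583-46751789 for Saa2 (plus) and chr7:46715701-46715926 for Saa3 (minus), cut off where the GENCODE gene begins, and capitals mark matches to a C/EBP type motif.
Saa1: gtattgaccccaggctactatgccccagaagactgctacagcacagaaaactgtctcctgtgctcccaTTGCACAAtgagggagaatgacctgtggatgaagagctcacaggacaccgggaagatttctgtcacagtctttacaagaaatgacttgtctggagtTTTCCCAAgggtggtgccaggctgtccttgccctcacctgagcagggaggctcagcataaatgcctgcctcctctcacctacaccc
Saa2: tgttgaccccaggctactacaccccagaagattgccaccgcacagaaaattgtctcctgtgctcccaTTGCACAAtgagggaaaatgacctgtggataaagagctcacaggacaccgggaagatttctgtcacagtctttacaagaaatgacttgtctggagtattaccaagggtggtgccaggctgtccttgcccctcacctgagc
Saa3: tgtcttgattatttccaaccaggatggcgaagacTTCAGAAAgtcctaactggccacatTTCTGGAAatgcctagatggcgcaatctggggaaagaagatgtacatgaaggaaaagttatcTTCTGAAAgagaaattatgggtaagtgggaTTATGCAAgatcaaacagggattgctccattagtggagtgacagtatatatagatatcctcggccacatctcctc

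Over the 250 bases before the RefSeq start, Saa1 and Saa2 were identical at 95.6% of aligned bases, whereas Saa3 was identical to Saa1 at 75.1% and to Saa2 at 71.0%. Of the 10 genes, Saa1, Saa2, Saa3, Orm2, Lcn2 and Apcs had a promoter entry, and Orm1, Hp, Lbp and Wfdc21 had none. The C/EBP type motif (TTNNGNAA, both strands) was matched in 5 of these 6 promoters, with 4 matches in Saa3, 2 in Saa1, 2 in Orm2, 1 in Saa2 and 1 in Lcn2, and in 36.8% of all 32851 promoters of this length. The STAT3 type motif (TTCNNNGAA, both strands) was matched in Apcs alone of the 6, 244 bases before its start, and in 7.02% of all promoters. The NF-kB consensus was matched in 0 of the 6, beside 3.90% of all promoters. A match describes the letters and not the binding of a factor.

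Saa1 was from 74.9 to 1137 CPM in CON-GFP (median 147), from 56.2 to 118 CPM in FPC-GFP (median 78.8) and from 106 to 412 CPM in FPC-LIPA (median 253). The highest value was that of CON-GFP 3, the next CON-GFP liver was CON-GFP 7 at 381 CPM, and the groups overlapped in each comparison. With the diet the log2 fold change of Saa1 was -2.01 (SE 0.55, adjusted p = 0.0162, edgeR's quasi-likelihood test), and -1.08 (SE 0.33, adjusted p = 0.0327) without CON-GFP 3. With LIPA it was higher by 1.71 on the log2 scale (SE 0.35, adjusted p = 0.0127), and 4 of 6 FPC-LIPA livers were above the highest FPC-GFP liver. Against CON-GFP its log2 fold change in FPC-LIPA was -0.35 (SE 0.59, adjusted p = 0.687), and 0.58 (adjusted p = 0.379) without CON-GFP 3.

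Saa2 followed Saa1 at a lower level, from 33.3 to 642 CPM in CON-GFP (median 59.7), from 22.2 to 62.2 CPM in FPC-GFP (median 35.1) and from 33.8 to 109 CPM in FPC-LIPA (median 77.6). CON-GFP 3 again held the highest value, and the other 5 CON-GFP livers were at most 65.2 CPM. Its log2 fold change was -2.002 in FPC-GFP against CON-GFP (SE 0.65, adjusted p = 0.0368, edgeR's quasi-likelihood test), but -0.50 (adjusted p = 0.156) without CON-GFP 3. The call was also lost without FPC-GFP 11, 12, 13, 19 or 20, with adjusted p from 0.0577 to 0.0758. In FPC-LIPA against FPC-GFP it was 1.10 (SE 0.31, adjusted p = 0.0269), and the call was lost when any of FPC-GFP 11, 12, 19 and 20 and FPC-LIPA 36, 37 and 39 was left out. The ratio of Saa1 to Saa2 counts was 1.77 in CON-GFP 3, 5.84 in CON-GFP 7 and between these in the other 16 livers. The sum of the 2 genes had a log2 fold change of -2.01 (adjusted p = 0.0203) with the diet and of 1.54 (adjusted p = 0.0144) with LIPA.

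Saa3 was the least abundant of the 3 genes in the GFP livers, from 5.33 to 14.2 CPM in CON-GFP (median 10.5), from 6.69 to 17.3 CPM in FPC-GFP (median 13.5) and from 22.9 to 182 CPM in FPC-LIPA (median 84.2). All 6 FPC-LIPA livers were above all 12 GFP livers, and CON-GFP 3, the liver highest in Saa1 and Saa2, was at 14.2 CPM. FPC-LIPA 31, 33 and 34 were at 36.0, 22.9 and 23.5 CPM, and FPC-LIPA 36, 37 and 39 at 182, 132 and 161 CPM. The log2 fold change was 2.98 in FPC-LIPA against FPC-GFP (SE 0.54, adjusted p = 0.0107, edgeR's quasi-likelihood test) and 0.31 in FPC-GFP against CON-GFP (SE 0.24, adjusted p = 0.372). Saa3 was the 1 gene of the 10 without overlap between FPC-LIPA and FPC-GFP, beside 7.66% of genes tested (3.36% higher and 4.30% lower). When FPC-LIPA 36, 37 and 39 were left out, its log2 fold change was 1.14 (SE 0.27, adjusted p = 0.0611), and the remaining 3 FPC-LIPA livers were still above the highest FPC-GFP liver.

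**Figure D1:**
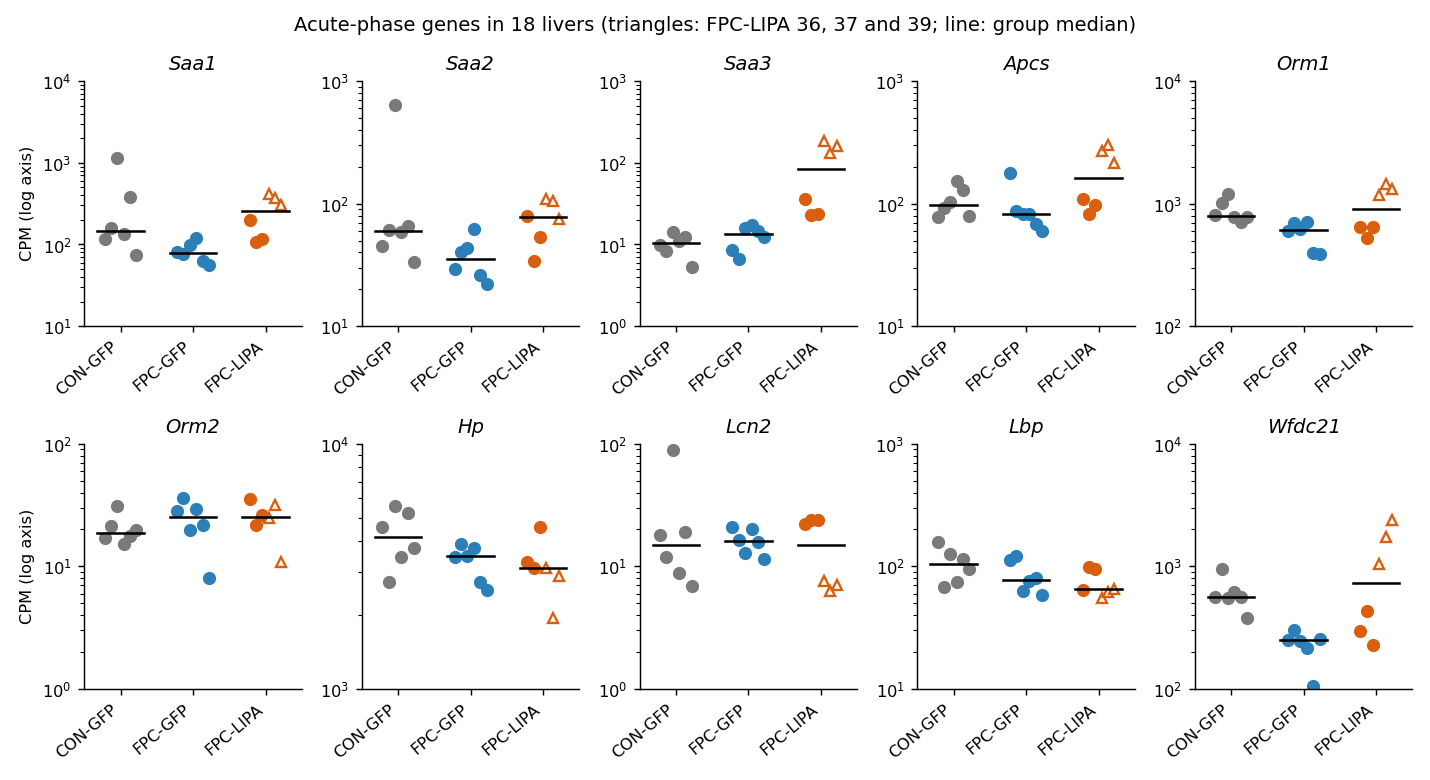
Level of each of the 10 acute-phase genes in every liver, as CPM on a log axis, for CON-GFP (grey), FPC-GFP (blue) and FPC-LIPA (orange). Each point is 1 liver, open triangles are FPC-LIPA 36, 37 and 39, and lines are group medians. Saa3 is higher in all 6 FPC-LIPA livers, at 22.9 to 182 CPM, than in any GFP liver. Lcn2 in the triangles, at 6.32 to 7.66 CPM, is below every FPC-GFP liver, but CON-GFP 8 is as low at 6.96 CPM.

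Apcs (ENSMUSG00000026542, chromosome 1, 172893961 to 172895041) encodes serum amyloid P, a pentraxin related to C-reactive protein. It was from 77.5 to 154 CPM in CON-GFP (median 97.4), from 60.3 to 179 CPM in FPC-GFP (median 82.1) and from 82.2 to 301 CPM in FPC-LIPA (median 161). FPC-LIPA 36, 37 and 39 were at 214 to 301 CPM, above every other liver, and FPC-LIPA 31, 33 and 34 were at 82.2 to 108 CPM, within the range of the FPC-GFP livers. The log2 fold change was 1.02 with LIPA (SE 0.37, adjusted p = 0.0594), which missed the threshold but passed it without FPC-GFP 11 (1.32, adjusted p = 0.0430) or without FPC-LIPA 31, 33 or 34, and -0.18 with the diet (SE 0.24, adjusted p = 0.620, edgeR's quasi-likelihood test). The value with LIPA was 0.06 (adjusted p = 0.933) without FPC-LIPA 36, 37 and 39.

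Orm1 (ENSMUSG00000039196, chromosome 4, 63344560 to 63348163) and Orm2 (ENSMUSG00000061540, chromosome 4, 63362449 to 63365878) encode orosomucoids, or alpha-1-acid glycoproteins, which bind drugs and lipids in plasma. Their coding sequences were identical at 89.9% of aligned bases. Orm1 was from 706 to 1190 CPM in CON-GFP (median 789), from 388 to 711 CPM in FPC-GFP (median 609) and from 527 to 1456 CPM in FPC-LIPA (median 904). In 5 of 6 FPC-GFP livers Orm1 was below the lowest CON-GFP liver, and FPC-LIPA 36, 37 and 39 were at 1166 to 1456 CPM against 527 to 643 CPM in FPC-LIPA 31, 33 and 34. The log2 fold change of Orm1 was -0.63 with the diet (SE 0.18, adjusted p = 0.0216, edgeR's quasi-likelihood test), which passes the test but not the fold change minimum, and 0.84 with LIPA (SE 0.30, adjusted p = 0.0545). Without FPC-LIPA 36, 37 and 39 the value with LIPA was 0.11 (adjusted p = 0.810).

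Orm2 was expressed at a small part of the Orm1 level, from 15.3 to 31.0 CPM in CON-GFP (median 18.7), from 7.96 to 36.0 CPM in FPC-GFP (median 25.1) and from 10.9 to 35.6 CPM in FPC-LIPA (median 25.4). The 3 groups overlapped. Its log2 fold change was 0.24 with the diet (SE 0.27, adjusted p = 0.536) and 0.13 with LIPA (SE 0.32, adjusted p = 0.778, edgeR's quasi-likelihood test).

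Hp (ENSMUSG00000031722, chromosome 8, 109575128 to 109579172) encodes haptoglobin, which binds free hemoglobin, and it took most of the reads of the 10 genes. It was from 2735 to 5582 CPM in CON-GFP (median 4166), from 2539 to 3917 CPM in FPC-GFP (median 3475) and from 1948 to 4587 CPM in FPC-LIPA (median 3114). The 3 groups overlapped, with log2 fold changes of -0.34 with the diet (SE 0.17, adjusted p = 0.155) and -0.02 with LIPA (SE 0.20, adjusted p = 0.940, edgeR's quasi-likelihood test). Its mean share of the counts of the 10 genes was 65.6% in CON-GFP, 74.5% in FPC-GFP and 55.98% in FPC-LIPA, where it ran from 31.7% to 77.8% between livers.

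Lcn2 (ENSMUSG00000026822, chromosome 2, 32384633 to 32388252) encodes lipocalin 2, which binds bacterial siderophores and is made by hepatocytes and by neutrophils. It was from 6.96 to 88.6 CPM in CON-GFP (median 15.0), from 11.6 to 21.0 CPM in FPC-GFP (median 16.0) and from 6.32 to 24.1 CPM in FPC-LIPA (median 14.9). The FPC-LIPA livers lay on both sides of FPC-GFP, with FPC-LIPA 31, 33 and 34 at 22.1 to 24.1 CPM, above every FPC-GFP liver, and FPC-LIPA 36, 37 and 39 at 6.32 to 7.66 CPM, below every FPC-GFP liver. Over all 6, its log2 fold change with LIPA was -0.07 (SE 0.33, adjusted p = 0.897, edgeR's quasi-likelihood test). It was 0.53 (SE 0.18, adjusted p = 0.135) without FPC-LIPA 36, 37 and 39, and -1.14 (SE 0.21, adjusted p = 0.000695) without FPC-LIPA 31, 33 and 34. With the diet it was -0.64 (SE 0.49, adjusted p = 0.355), and 0.33 (adjusted p = 0.355) without CON-GFP 3, which held the highest value.

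Lbp (ENSMUSG00000016024, chromosome 2, 158306493 to 158332852) encodes the protein that carries bacterial lipopolysaccharide to CD14. It was from 67.8 to 159 CPM in CON-GFP (median 105), from 58.5 to 121 CPM in FPC-GFP (median 78.0) and from 54.9 to 98.0 CPM in FPC-LIPA (median 64.8). The 3 groups overlapped, with log2 fold changes of -0.31 with the diet (SE 0.22, adjusted p = 0.304) and -0.17 with LIPA (SE 0.22, adjusted p = 0.580, edgeR's quasi-likelihood test). Hp and Lbp had the longest transcripts of the 10 genes, 1345 and 2525 bases.

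Wfdc21 (ENSMUSG00000051748, chromosome 11, 83746940 to 83752642) encodes a small secreted protein with a whey acidic protein domain. It was from 376 to 953 CPM in CON-GFP (median 566), from 106 to 300 CPM in FPC-GFP (median 249) and from 226 to 2407 CPM in FPC-LIPA (median 735). All 6 FPC-GFP livers were below all 6 CON-GFP livers, and Wfdc21 was the 1 gene of the 10 without overlap in this comparison, beside 10.4% of genes tested (5.61% higher and 4.82% lower). Its log2 fold change with the diet was -1.39 (SE 0.24, adjusted p = 0.00144, edgeR's quasi-likelihood test), and -1.03 (SE 0.23, adjusted p = 0.00650) when the trend of each library on transcript length was removed. With LIPA it was 2.25 (SE 0.54, adjusted p = 0.0179). FPC-LIPA 36, 37 and 39 were at 1040, 1736 and 2407 CPM, and FPC-LIPA 31, 33 and 34 were at 298, 431 and 226 CPM, of which 1 was above the highest FPC-GFP liver. Its log2 fold change with LIPA was 0.49 (adjusted p = 0.369) when FPC-LIPA 36, 37 and 39 were left out.

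The order of the genes by level was taken per length, as mean CPM per kb of the principal transcript. In CON-GFP it ran Hp (3139 ± 818, SD), Wfdc21 (1391 ± 437), Orm1 (1131 ± 240), Saa1 (548 ± 670), Saa2 (231 ± 370), Apcs (109 ± 30.7), Lbp (42.2 ± 13.5), Lcn2 (27.9 ± 34.1), Orm2 (26.2 ± 7.26) and Saa3 (18.4 ± 5.58). Neighbours in this order overlapped between livers except Apcs and Lbp. The SDs of Saa1, Saa2 and Lcn2 exceeded their means, with the highest value of each in CON-GFP 3. Per kb of summed exons, ranks 5 to 9 in CON-GFP were Apcs, Saa2, Orm2, Lbp and Lcn2. In FPC-GFP, Saa3 (22.7 ± 7.54) stood ninth. In FPC-LIPA, Saa3 (167 ± 133) stood sixth of the 10 and Wfdc21 (2357 ± 2044) was the highest, ahead of Hp (2347 ± 632), with a spread between livers wider than the gap between these 2 genes.

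**Figure D2:**
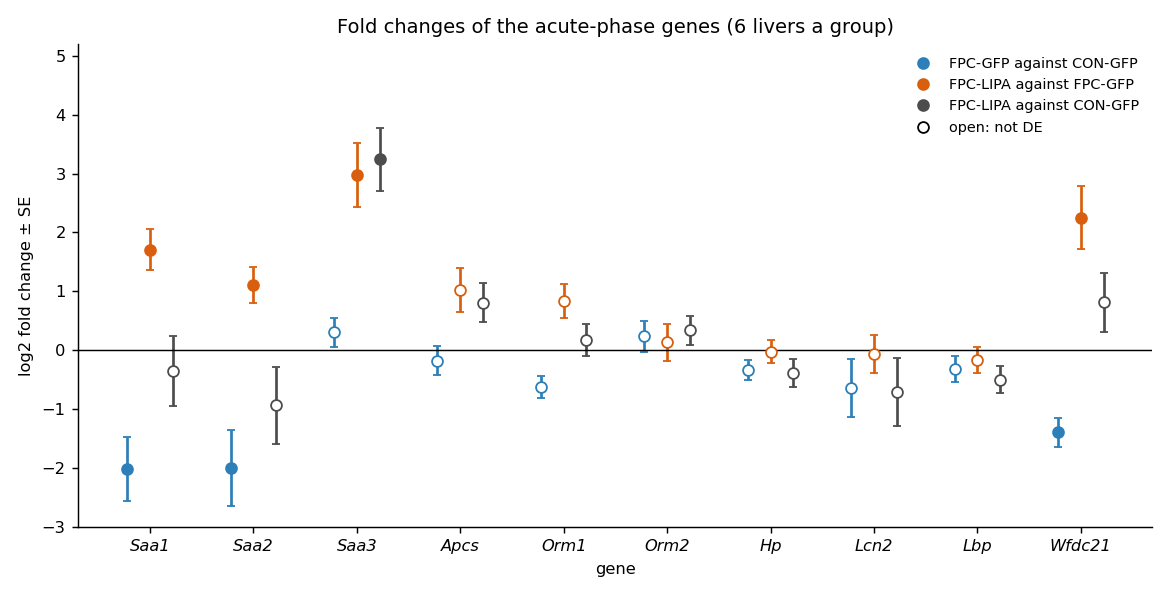
Log2 fold change ± SE of each of the 10 genes in FPC-GFP against CON-GFP (blue), FPC-LIPA against FPC-GFP (orange) and FPC-LIPA against CON-GFP (grey), with 6 livers a group. Filled points are DE, and they lie below 0 for Saa1, Saa2 and Wfdc21 with the diet and above 0 for Saa3, Wfdc21, Saa1 and Saa2 with LIPA.

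With the diet, 8 of the 10 genes had a negative log2 fold change and 2, Saa3 and Orm2, a positive one. The median over the 10 genes was -0.48, where the median over all genes tested was 0.01. At an adjusted p under 0.05 with no fold change minimum, 4 of the 10 passed and were lower, beside 23.8% of genes tested (10.9% lower and 12.9% higher). The medians of short transcripts were also below 0 in this comparison, at -0.38 for 401 genes under 500 bases and -0.26 for 488 genes of 500 to 750 bases, where Saa1, Saa2 and Wfdc21 lie. With the trend on transcript length removed, Saa1 had a log2 fold change of -1.79 (adjusted p = 0.0296) and Saa2 of -1.78 (adjusted p = 0.0577, edgeR's quasi-likelihood test).

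With LIPA, 7 of the 10 genes had a positive log2 fold change, with a median of 0.93 where that of all genes tested was 0.04. The 4 DE genes had the shortest transcripts of the 10. Their principal transcripts are of 434 bases (Wfdc21), 555 bases (Saa3), 609 bases (Saa1) and 652 bases (Saa2), and the 6 others have 775 bases or more. Over all genes tested the median log2 fold change fell from 1.05 in 426 genes under 500 bases and 0.89 in 511 genes of 500 to 750 bases to -0.17 in 2496 genes of at least 5000 bases. Saa3 and Saa1 were above the upper quartile of genes of 500 to 750 bases (1.54), Saa2 lay between the quartiles of that class, and Wfdc21 was above the upper quartile of genes under 500 bases (1.86). With the trend on transcript length removed, 1 of the 10 was DE, beside 8.73% of 14604 genes (7.66% higher and 1.08% lower). It was Saa3 at 1.84 on the log2 scale (SE 0.37, adjusted p = 0.0171), and Saa1 was at 0.79 (adjusted p = 0.0286), Saa2 at 0.33 (adjusted p = 0.284) and Wfdc21 at 0.95 (adjusted p = 0.0740, edgeR's quasi-likelihood test). The part of transcript length in these differences was not tested.

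**Figure D3:**
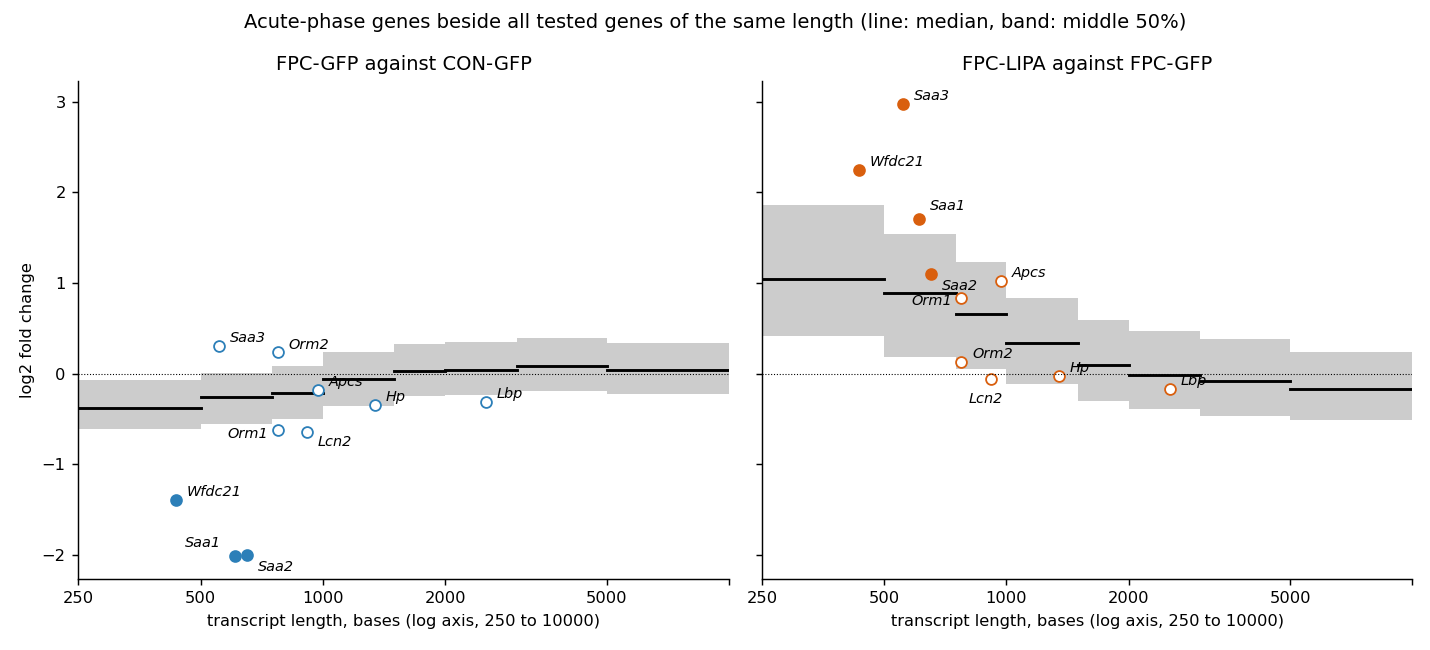
Log2 fold change of the 10 genes against the length of their principal transcript in bases (log axis), in FPC-GFP against CON-GFP (left) and FPC-LIPA against FPC-GFP (right). Black lines are medians and grey bands the middle 50% of all genes tested in each length class, and filled points are DE. In the right panel the median falls from 1.05 in the shortest class to -0.17 in the longest, and Saa3, Wfdc21 and Saa1 lie above their bands.

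Without FPC-LIPA 36, 37 and 39, 0 of the 10 genes were DE in FPC-LIPA against FPC-GFP by edgeR's quasi-likelihood test, and 3 had an unadjusted p under 0.05. Over all 15246 genes tested this fit called 0.761%. The log2 fold changes of the 4 genes remained positive, at 1.14 for Saa3, 0.79 for Saa1 (adjusted p = 0.110), 0.60 for Saa2 (adjusted p = 0.313) and 0.49 for Wfdc21. Orm2 was at 0.23, Hp at 0.16 and Lbp at 0.03. Without FPC-LIPA 31, 33 and 34, an alternative added after the data were seen, 7 of the 10 were DE, beside 34.1% of all 15139 genes tested (19.1% higher and 15.0% lower). Of these 6 were higher (Saa3 3.72, Wfdc21 2.98, Saa1 2.22, Apcs 1.56, Saa2 1.44 and Orm1 1.28) and Lcn2 was lower. FPC-LIPA 36, 37 and 39 were all above FPC-LIPA 31, 33 and 34 in 5 of the 10 genes and all below them in 1, beside 21.1% and 27.6% of all genes tested.

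**Figure D4:**
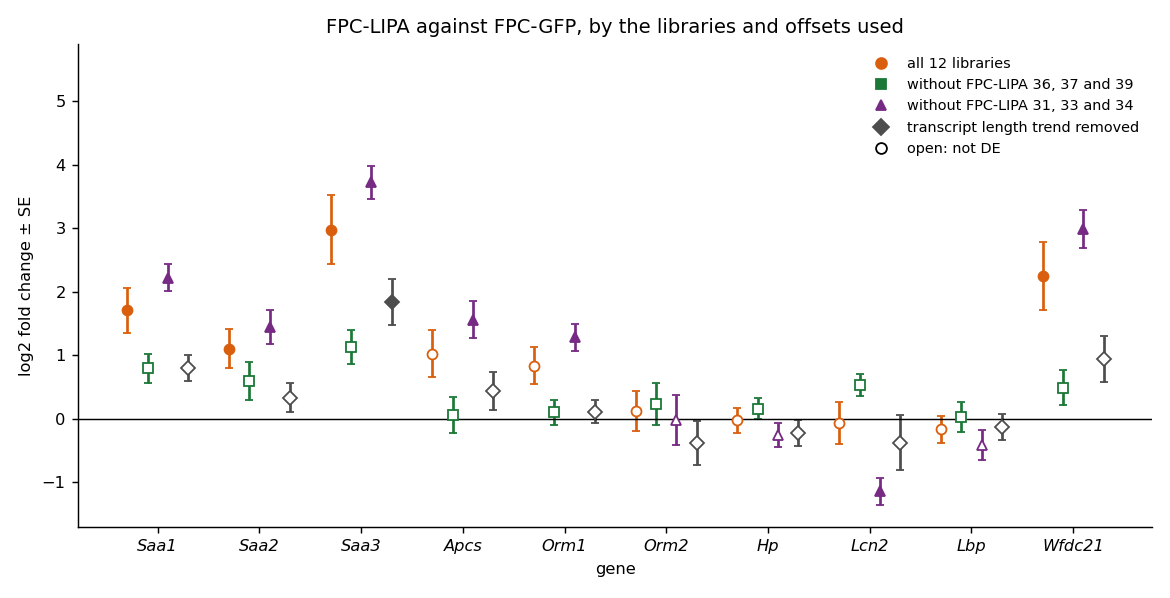
Log2 fold change ± SE of the 10 genes in FPC-LIPA against FPC-GFP with all 12 libraries (circles), without FPC-LIPA 36, 37 and 39 (squares), without FPC-LIPA 31, 33 and 34 (triangles) and with the trend on transcript length removed (diamonds). Filled points are DE, with 4, 0, 7 and 1 of the 10 genes in these settings, and the sign of Lcn2 changes with the libraries used.

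Against CON-GFP, the log2 difference of Saa3 in FPC-LIPA was 3.24 (SE 0.54, adjusted p = 0.000829, edgeR's quasi-likelihood test). It was the 1 gene of the 10 without overlap in this comparison, beside 11.1% of genes tested (5.58% higher and 5.56% lower). Its value was 1.44 (adjusted p = 0.00203) without FPC-LIPA 36, 37 and 39 and 2.41 (adjusted p = 0.000501) with the trend on transcript length removed, and Saa3 was DE in each of these fits. The other 9 genes had log2 fold changes from -0.94 (Saa2) to 0.81 (Wfdc21 and Apcs), and the smallest adjusted p among them was 0.0897 (Apcs).

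Other genes of the response were described from lists of positive and negative acute-phase genes, cytokines and their receptors, signalling genes and receptors of acute-phase proteins. Of 20 other positive acute-phase genes, 19 were tested. With the diet 2 were DE and both were lower, beside 7.20% of all genes tested (2.44% lower), and 17 of 19 had a negative log2 fold change (median -0.39). These 2 were Saa4, a constitutive serum amyloid A gene beside Saa1, at 618 ± 255 CPM on the control diet and 215 ± 52.8 CPM in FPC-GFP (log2 fold change -1.51, SE 0.24), and Itih3, which encodes an inter-alpha-trypsin inhibitor chain (-1.09, SE 0.20). In both genes all FPC-GFP livers were below all CON-GFP livers, beside 10.4% of genes tested without overlap (5.61% higher and 4.82% lower). Without CON-GFP 3 the count of DE genes was 1, beside 6.98% of all genes tested.

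With LIPA, 0 of these 19 genes were DE by edgeR's quasi-likelihood test or by the DESeq2 Wald test, and 6 had an unadjusted p under 0.05 in edgeR (8 in DESeq2). Without FPC-LIPA 33 or 34 the count was 2, beside 17.8% and 14.8% of all genes tested. The median was -0.17, where that of the 10 genes was 0.93. The most abundant of them went in opposite directions. Hpx, which encodes hemopexin, was 4189.7 ± 523 CPM in FPC-GFP and 6326 ± 1712 CPM in FPC-LIPA (log2 fold change 0.66, adjusted p = 0.0422), and C3, the complement component, was 3359 ± 373 and 2123 ± 670.4 CPM (-0.62, adjusted p = 0.0452, edgeR's quasi-likelihood test). Saa4 was 225 ± 57.98 CPM in FPC-LIPA, and its log2 fold change was 0.12 (SE 0.22, adjusted p = 0.699). In FPC-LIPA against CON-GFP, 8 of the 19 genes were DE and all 8 were lower (median of the list -0.90), beside 15.1% of genes tested (3.25% lower). Without FPC-LIPA 36, 37 and 39, 4 were DE and lower, beside 11.4% (2.60% lower).

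Negative acute-phase genes were not DE in the first 2 comparisons. In FPC-LIPA against CON-GFP 3 of 10 were DE, all lower, beside 15.1% of genes tested (3.25% lower). Without FPC-LIPA 36, 37 and 39 the count was 1, beside 11.4% of genes tested. Of 10 tested, 0 were DE with the diet and 0 with LIPA by edgeR and by DESeq2, and 4 and 2 had an unadjusted p under 0.05 in edgeR (4 and 4 in DESeq2). When FPC-GFP 19, FPC-LIPA 33 or FPC-LIPA 34 was left out, 2 were DE with LIPA, beside 9.17%, 17.8% and 14.8% of all genes tested. Those that passed the adjusted p alone were lower in each case, 4 with the diet and 2 with LIPA. With the diet 23.8% of all genes tested passed it (10.9% lower), and the share with LIPA is not given here. The most abundant, Alb for albumin and Trf for transferrin, had log2 fold changes of -0.15 and -0.08 with the diet and of -0.23 (adjusted p = 0.387) and -0.27 (adjusted p = 0.361) with LIPA.

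Among 16 cytokine and receptor genes, 11 were tested, and 2 were DE with the diet, 1 higher and 1 lower, beside 7.20% of all genes tested. Il6, Tnf, Osm, Lif and Il22 did not pass the filter on low counts, and their group means were at most 0.391 CPM. Il1b, a cytokine that induces Saa genes, was 1.99 ± 0.999 CPM in CON-GFP, 4.86 ± 2.88 CPM in FPC-GFP and 11.9 ± 8.46 CPM in FPC-LIPA. It was DE with the diet (log2 fold change 1.28, SE 0.39, adjusted p = 0.0275), opposite in direction to Saa1, and missed the threshold with LIPA (1.36, SE 0.47, adjusted p = 0.0523, edgeR's quasi-likelihood test). Il1r1, the signalling receptor of interleukin-1, was the 1 gene of the list that was DE and lower with the diet, at 103 ± 79.4 and 38.2 ± 20.9 CPM (-1.42, SE 0.49, adjusted p = 0.0454). Its level was 124 to 197 CPM in CON-GFP 1, 2 and 3. In CON-GFP 6, 7 and 8 it was 30.8 to 39.1 CPM, within the FPC-GFP range of 23.8 to 78.5 CPM. Il1rap and Il6st, shared receptor chains of the interleukin-1 and interleukin-6 families, are the most abundant of the list and had log2 fold changes of -0.69 (adjusted p = 0.00207) and 0.40 (adjusted p = 0.0311) with the diet. The count of DE genes in this list was 0 without CON-GFP 1 or 2 or FPC-GFP 19, 1 without CON-GFP 3 or FPC-GFP 12, 13 or 16, and 4 without CON-GFP 7. These fits called 5.94% to 7.61% of all genes tested.

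With LIPA, 2 of the 11 were DE, both lower, beside 11.4% of all genes tested (1.11% lower). Il6ra, the receptor chain that binds interleukin-6, was 27.9 ± 9.54 CPM in FPC-GFP and 13.0 ± 7.49 CPM in FPC-LIPA (log2 fold change -1.05, SE 0.35, adjusted p = 0.0463), and Tnfrsf1a, a receptor of tumor necrosis factor, was 101 ± 45.1 and 48.9 ± 26.1 CPM (-1.01, SE 0.34, adjusted p = 0.0460, edgeR's quasi-likelihood test). Scaled by library size alone, 0 of the 11 were DE with LIPA and 3 had an unadjusted p under 0.05. The count was also 0 when any of FPC-GFP 11, 12, 13, 16 and 20 and FPC-LIPA 36 and 37 was left out, and 1 without FPC-LIPA 34 or 39. The fits with a count of 0 called 5.80% to 8.80% of all genes tested. Those without FPC-LIPA 34 or 39 called 14.8% and 6.41%.

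Of 15 genes of signalling and transcription factors, 0 were DE with the diet by edgeR or DESeq2 (6 with an unadjusted p under 0.05 in each). The count was 1 without CON-GFP 6 or 7 or FPC-GFP 11, beside 7.02% to 7.61% of all genes tested. Hnf4a (log2 fold change -0.98, adjusted p = 0.0425) and Cebpa (-0.88, adjusted p = 0.0159, edgeR's quasi-likelihood test), the most abundant of the list, were lower with LIPA but short of a 2-fold change. Both genes were without overlap, beside 7.66% of genes tested (3.36% higher and 4.30% lower). For Hnf4a the highest FPC-LIPA liver was at 408.75 CPM and the lowest FPC-GFP liver at 408.83 CPM. FPC-LIPA 36, 37 and 39 held it at 98.0 to 196 CPM and FPC-LIPA 31, 33 and 34 at 282 to 409 CPM.

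Of 10 genes of receptors of the proteins, 2 were DE with the diet and 3 with LIPA, beside 7.20% and 11.4% of all genes tested. With the diet 2 of 10 were DE, both higher, Cd14, the partner of Lbp, at 2.11 ± 0.713 CPM on the control diet and 7.16 ± 4.20 CPM in FPC-GFP (log2 fold change 1.76, SE 0.34, adjusted p = 0.00276), and Fpr2, a receptor of serum amyloid A (1.79, SE 0.49, adjusted p = 0.0164). With LIPA 3 of 10 were DE. Tlr4 (1.66, SE 0.38, adjusted p = 0.0162) and Ly96 (1.61, SE 0.50, adjusted p = 0.0365), parts of the lipopolysaccharide receptor, were higher, and Cd163, the haptoglobin-hemoglobin receptor of macrophages, was lower at 10.5 ± 3.65 CPM in FPC-GFP and 4.75 ± 2.72 CPM in FPC-LIPA (-1.09, SE 0.37, adjusted p = 0.0482, edgeR's quasi-likelihood test). The FPC-LIPA livers held Ly96 at 29.2 CPM (FPC-LIPA 37), 12.9 CPM (FPC-LIPA 36) and 4.02 to 4.80 CPM (the other 4). Of this list 1 gene was DE with LIPA without any 1 of the 6 FPC-GFP livers, or without FPC-LIPA 36 or 37. Those fits called 5.80% to 9.17% of all genes tested. The most abundant of the list, Asgr1 and Scarb1, had log2 fold changes of 0.36 (adjusted p = 0.187) and -0.56 (adjusted p = 0.178) with LIPA. Without FPC-LIPA 36, 37 and 39, 0 genes of these 5 lists were DE with LIPA by edgeR, and 3 receptor genes, 4 signalling genes, 3 cytokine and receptor genes, 3 negative and 0 other positive acute-phase genes had an unadjusted p under 0.05. This fit called 0.761% of all genes tested.

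Markers of other cell types moved beside these genes. In bulk liver, fewer or more cells of a type cannot be told apart from less or more RNA per cell. Of 11 macrophage and monocyte markers, 10 were DE and higher with the diet and 4 with LIPA, beside 4.76% and 10.3% of all genes tested. Their summed level was 167 to 335 CPM on the control diet, 437 to 907 CPM in FPC-GFP and 931 to 1449 CPM in FPC-LIPA, without overlap. The most abundant were Lyz2, at 50.5 ± 14.7, 138 ± 69.9 and 481 ± 130 CPM, and Cd5l, at 54.4 ± 16.0, 155 ± 43.5 and 282 ± 85.8 CPM. With LIPA 10 of the 11 had a positive log2 fold change, but the markers were not alike. In FPC-LIPA 36, 37 and 39, Csf1r (22.9 to 25.5 CPM) and Cd68 (5.81 to 9.25 CPM) were below every FPC-GFP liver (47.1 to 89.5 and 11.3 to 19.4 CPM). Neutrophil markers were low, with a summed level over 10 genes of 2.22 to 4.44 CPM, 3.02 to 6.20 CPM and 7.69 to 19.3 CPM, also higher in all FPC-LIPA livers than in any other. Of these 10 only S100a8, S100a9 and Csf3r were tested, and S100a9 was 0.956 ± 0.437 CPM in FPC-GFP and 5.60 ± 3.20 CPM in FPC-LIPA (log2 fold change 2.63, SE 0.44, adjusted p = 0.00954, edgeR's quasi-likelihood test). The libraries FPC-LIPA 36, 37 and 39, high in Saa3 and low in Lcn2, held S100a9 at 7.99 to 9.40 CPM, where FPC-LIPA 31, 33 and 34 held it at 2.31 to 3.22 CPM. S100a8 was split in the same direction, but Csf3r in the opposite one. Csf3r was at 1.22 to 2.30 CPM in FPC-LIPA 36, 37 and 39 and at 3.19 to 11.7 CPM in FPC-LIPA 31, 33 and 34. Its log2 fold change with LIPA was 0.55 (adjusted p = 0.372, edgeR's quasi-likelihood test). Ngp, Camp, Ltf, Mpo and Elane, markers of neutrophil granules, had group means of at most 0.190 CPM. The part of these cells in the Saa3 and Lcn2 levels was not tested.

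Markers of the remaining cell types changed in single genes, beside 7.20% of all genes tested with the diet and 11.4% with LIPA. Of 6 hepatocyte markers 1 was DE and lower with the diet and 1, Cyp3a11, was DE and higher with LIPA (log2 fold change 1.41, adjusted p = 0.0204). Its levels were 8444 to 13552 CPM in FPC-LIPA 36, 37 and 39, whereas FPC-LIPA 31, 33 and 34 had 3694 to 5066 CPM and the FPC-GFP livers 1656 to 4961 CPM. Cyp2e1, the most abundant, had log2 fold changes of -0.65 with the diet (adjusted p = 0.0165) and -0.46 with LIPA (adjusted p = 0.130, edgeR's quasi-likelihood test). Of 5 adipocyte markers 2 were tested, with 0 DE with the diet (0 with an unadjusted p under 0.05) and 1 with LIPA, Fabp4, which macrophages also express, at 22.3 ± 12.3 CPM in FPC-GFP and 44.9 ± 13.8 CPM in FPC-LIPA. Of 6 stellate cell markers 1 was DE and higher with the diet and 0 with LIPA (2 with an unadjusted p under 0.05), with Dcn at 0.88 (adjusted p = 0.0449) and Reln at -0.28 (adjusted p = 0.165) with LIPA. Of 5 endothelial markers 1 was DE and higher with the diet and 0 with LIPA (1 with an unadjusted p under 0.05), with Clec4g at 0.61 (adjusted p = 0.0651) and Stab2 at -0.02 (adjusted p = 0.957) with LIPA. Of 5 cholangiocyte markers 4 were tested, and 0 were DE in either comparison (0 with an unadjusted p under 0.05), with Sox9 at 0.04 and Epcam at -0.41 on the log2 scale with LIPA. When FPC-LIPA 36, 37 and 39 were left out, 3 macrophage and monocyte markers were DE and higher with LIPA, and 0 markers of the other 6 cell types were DE by edgeR, of which 2 neutrophil, 2 endothelial, 1 hepatocyte and 1 stellate cell marker had an unadjusted p under 0.05. Over all genes tested this fit called 0.761%.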

How the data were processed

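Bulk RNA was sequenced from 18 livers, 6 per group. Per the study's methods, the authors trimmed reads with Trimmomatic, aligned them to the mouse genome (GRCm38, mm10 in the submitters' processing notes) with HISAT2 (2.1.0) and deposited raw counts per gene from featureCounts (Subread). The strand setting, the annotation version and the treatment of multi-mapping reads are not given in the sources used here, and the labels name a stranded or an unstranded kit, so reads of paralogs and of overlapping or antisense genes may be split differently. Columns were matched to samples by their labels, and 5 columns of the table were not used. Groups were compared in pairs, with only the 12 libraries of each pair in a fit, by edgeR (4.0.16, R 4.3.3) with filterByExpr, TMM factors and the quasi-likelihood F test, two-sided, with Benjamini-Hochberg adjustment over all genes tested. A gene was DE when it differed at least 2-fold with an adjusted p below 0.05. DESeq2 (1.42.0) was an alternative. The labels number the mice individually, so p-values measure the spread between mice.

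The alternatives were other scalings, filters and tests, a fit of all 18 libraries, libraries with sheet numbers 55 to 68, removal of trends on exon length or GC content, summed paralogs, each library left out, and the fit without FPC-LIPA 36, 37 and 39. The sheet number ends the sample label, and the labels do not say what it stands for. Sheet numbers 55 to 68 leave out CON-GFP 1, CON-GFP 2, FPC-GFP 20 and FPC-LIPA 37, and FPC-LIPA 37 has by far the highest number. Removal of the trend on transcript length and the fit without FPC-LIPA 31, 33 and 34 were added after the data were seen. Genes and lists were chosen with earlier results of these data known. The text names all 10 genes and, of each other list, the 2 with the highest mean level and those DE with the diet or with LIPA on the FPC diet. Other marker genes are given as counts, apart from the few named above. A result of the signalling list is not reported here. Gene positions and lengths are from GENCODE on GRCm38, and promoters are RefSeq sequences of GRCm38.p6 (Biopython 1.88). The scripts were tested on simulated data.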

Additional observations from a re-analysis of the deposited data

Results flagged for a closer look

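In each of the 30 sets of 6 livers (10 genes in 3 groups), the highest or lowest liver was compared with the others by Dixon's criterion on log2 CPM, for which chance flags about 1 in 20 sets. Saa2 in CON-GFP 3 was 642 CPM, where the other 5 CON-GFP livers were at 33.3 to 65.2 CPM. Apcs in FPC-GFP 11 was 179 CPM, where the other 5 FPC-GFP livers were at 60.3 to 87.3 CPM. Wfdc21 in FPC-GFP 19 was 106 CPM, where the other 5 FPC-GFP livers were at 216 to 300.3 CPM. The gap to the nearest liver over the range of the 6 was 0.773, 0.660 and 0.686 on this scale. On CPM without the log, Saa2 (0.947) and Apcs (0.772) still exceeded the critical value for 6 samples, Wfdc21 (0.569) did not, and Saa1 (0.712) and Lcn2 (0.850) in CON-GFP 3 did, at 1137 CPM for Saa1 (74.9 to 381 CPM in the others) and 88.6 CPM for Lcn2 (6.96 to 19.2 CPM).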

How the results depend on the processing

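With the diet, 2 to 3 of the 10 genes were DE when 1 library was left out, where 5.94% to 7.93% of all genes tested were DE. The count was 1 at an adjusted p under 0.01. Wfdc21 missed the threshold with all 18 libraries in a fit (adjusted p = 0.0690). With LIPA, 3 to 5 were DE when 1 library was left out, where 5.80% to 17.8% of all genes tested were DE. The count with LIPA was 0 with sheet numbers 55 to 68 (4 at an unadjusted p under 0.05), 1 with the trend on transcript length removed, 0 without FPC-LIPA 36, 37 and 39, and 7 without FPC-LIPA 31, 33 and 34, where 0.651%, 8.73%, 0.761% and 34.1% of all genes tested were DE. It was 0 at an adjusted p under 0.01, and shares of all genes at this threshold were not computed. In FPC-LIPA against CON-GFP the count was 1 in each fit that left out 1 library, where 11.9% to 18.6% of all genes were DE. It was 4 without FPC-LIPA 31, 33 and 34, where 32.1% of all genes were DE. The cause of these changes was not tested.

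Signs that turned belonged to values short of the threshold in the reported fits. With the diet, Apcs was 0.0071 with the trend on exon length removed, and Lcn2 ran from -0.84 to 0.33 when 1 library was left out. The sum of Orm1, Orm2 and Orm3 was at -0.60, near the value of Orm1 alone (-0.63), where Orm2 alone was at 0.24. With LIPA, Hp was 0.022 with upper-quartile factors and 0.0024 with at least 1 CPM in 6 libraries, and with sheet numbers 55 to 68 Orm2 was -0.16, Lcn2 0.0028 and Hp 0.0024. Orm2 was -0.39 with either length trend removed. With the GC trend removed Lcn2 was 0.10, Hp 0.29 and Lbp 0.028. Without FPC-LIPA 36, 37 and 39 Lcn2 was 0.53, Hp 0.16 and Lbp 0.027, and without FPC-LIPA 31, 33 and 34 Orm2 was -0.017. With 1 library left out, Lcn2 ran from -0.24 to 0.076, Hp from -0.16 to 0.061 and Orm2 from -0.052 to 0.28. In FPC-LIPA against CON-GFP, Orm1 was -0.32 and Wfdc21 -0.035 with the exon length trend removed, and -0.33 and -0.090 with the transcript length trend removed. Without FPC-LIPA 36, 37 and 39 Orm1 was -0.52, Apcs -0.12 and Wfdc21 -0.90, and without FPC-LIPA 31, 33 and 34 Saa1 was 0.16. With 1 library left out, Saa1 ran from -0.56 to 0.58, Saa2 from -1.15 to 0.56, Lcn2 from -0.93 to 0.25 and Orm1 from -0.011 to 0.28.

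Scaling by library size alone moved the median log2 fold change of all genes from 0.01 to 0.21 with the diet and from 0.04 to -0.09 with LIPA, and called 1054 genes higher and 225 lower with the diet, where TMM called 681 and 349. DESeq2 gave Saa2 no adjusted p in the comparisons with CON-GFP. No paired analysis was possible because the groups share no mouse numbers. Counting depth did not limit the 10 genes, the lowest of which was 5.33 CPM, and 6 livers a group limit the precision of each fold change.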

Other observations

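The mean of the standardised log2 CPM of the 10 genes was compared with 12725 other genes over the 18 livers, and the genes with the highest Pearson's r were Sys1 (0.79), Nme1 (0.77), Etfb (0.77), Serpina10 (0.75) and Sap18 (0.74). These are descriptions over libraries that also differ in transcript length composition. In CON-GFP, the liver with the highest Saa1, Saa2, Saa3, Orm1, Orm2, Lcn2 and Hp was CON-GFP 3, at 1137, 642, 14.2, 1189.6, 31.0, 88.6 and 5582 CPM. The highest Apcs was in CON-GFP 6 at 154 CPM, the highest Lbp in CON-GFP 1 at 159 CPM and the highest Wfdc21 in CON-GFP 2 at 953 CPM. The ratio of Saa3 to Saa1 counts was 0.0125 in CON-GFP 3, the lowest of the 18 livers, and its median was 0.0622 in CON-GFP, 0.154 in FPC-GFP and 0.286 in FPC-LIPA.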
